A study of Mus musculus with 65 samples.

Results

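Mecom, Prdm16, Hlf, Mllt3, Meis1, Gata2, Mycn, Erg and Runx1, 9 genes that encode regulators of blood stem cell identity, were followed through sorted mouse bone marrow populations. They were taken by gene symbol from the 44485 genes of the stem and progenitor set and the 44353 genes of the niche set with complete values, and by Ensembl ID from the 47526 genes of the niche set after 5-fluorouracil (5FU). All 9 were present in each set.

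The study sequenced RNA from 65 libraries in 17 groups of 3 to 6, sorted by flow cytometry from digested femur and tibia. All 5 groups of hematopoietic stem and progenitor cells (HSPCs) came from the LSK gate, which keeps Sca-1+ c-Kit+ cells without lineage markers. 5FuReserve (n = 3) was sorted as Flk2- CD34- CD49b- on day 3 after 5FU, an antimetabolite that kills cycling cells. The untreated groups were Reserve, with that same gate (n = 4), Primed, which is Flk2- CD34- CD49b+ (n = 3), ST, which is Flk2- CD34+ (n = 3), and MPP, which is Flk2+ CD34+ (n = 4). The niche set held 10 untreated groups. MK (n = 4) was CD45+ YFP+ from Pf4-Cre R26-YFP mice, a cross that marks cells with past or present activity of the Pf4 promoter, and Mac (n = 4) was the F4/80+ part of the CD45+ YFP-negative cells of that cross. The other niche groups were sorted without CD45, Ter119 and CD31. They were Pecam_GFP, Ncad_bone and Ncad_marrow (Tomato reporter of N-cadherin), Nestin_GFP, Cxcl12_DsRed, Ng2_RFP and Col2.3_GFP, with n = 4 each, and Lepr with n = 6. The last set held Tomato+ cells sorted after 5FU from bone and from marrow (5Fu_Ncad_bone and 5Fu_Ncad_marrow, n = 3 each), without a stated day. The labels give no strain, age or pooling of animals.

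The products of these genes act on chromatin in different ways. MECOM and PRDM16 are related zinc finger proteins with a PR domain, HLF is a PAR bZIP factor, MEIS1 a homeodomain protein that pairs with HOXA proteins, GATA2 a zinc finger factor, and MYCN a helix-loop-helix partner of MAX. ERG is an ETS factor, RUNX1 binds DNA with CBFB, and MLLT3 (AF9) is a histone acyl reader that brings DOT1L and elongation factors to genes rather than a classical DNA-binding factor. In mouse marrow most of them are known for keeping stem cells in an undifferentiated state, and GATA2, ERG, RUNX1, TAL1, LYL1, LMO2 and FLI1 are known to bind many of the same blood enhancers.

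RefSeq promoter windows of GRCm38.p6, which run from 250 bases before to 50 bases after a start, were searched on both strands for the letters read by these families. All 9 members matched, with 15 windows, and 32851 windows of the same length served as the background. TGACAG, read by MEIS proteins, was in 4 of the 15 member windows (Erg, Mecom, Mllt3 and Mycn), against 19.2% of all windows. TGTGGT, read by RUNX proteins, was in 2 (Meis1 and Runx1), against 16.8%. AGGAAG, read by ETS proteins, was in 2 (Erg and Runx1), against 35.4%. AGATAA, read by GATA proteins, was in 1 (Erg), against 11.2%, and CACGTG, read by MYC proteins, was in 1 (Runx1), against 7.15%. CAGCTG, a further E-box, was in 2 (Gata2 and Mllt3), against 16.3%, and TTACGTAA, read by PAR bZIP proteins, was in 0, against 0.119%. The windows of Meis1, Runx1, Erg and Mllt3 that hold letters of another member's family, or of their own, are shown because these genes feature most in the results. Only bases before the start and outside annotated exons of the gene are printed, 5′ to 3′ on the minus strand, on which all of these genes lie, and capitals mark the matches. They lie at chr11:19018986-19019219 (Meis1), chr16:92826150-92826324 (Runx1, distal start), chr16:95459349-95459598 (Erg, internal start) and chr4:87806324-87806573 (Mllt3, internal start).
Meis1: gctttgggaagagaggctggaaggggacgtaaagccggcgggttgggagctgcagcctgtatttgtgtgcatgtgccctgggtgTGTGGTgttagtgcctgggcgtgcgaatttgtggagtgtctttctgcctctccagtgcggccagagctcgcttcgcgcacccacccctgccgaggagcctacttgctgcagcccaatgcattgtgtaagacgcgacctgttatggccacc
Runx1: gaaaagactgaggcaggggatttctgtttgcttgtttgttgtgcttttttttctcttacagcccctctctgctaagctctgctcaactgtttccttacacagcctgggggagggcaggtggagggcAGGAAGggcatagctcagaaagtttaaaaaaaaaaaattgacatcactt
Erg: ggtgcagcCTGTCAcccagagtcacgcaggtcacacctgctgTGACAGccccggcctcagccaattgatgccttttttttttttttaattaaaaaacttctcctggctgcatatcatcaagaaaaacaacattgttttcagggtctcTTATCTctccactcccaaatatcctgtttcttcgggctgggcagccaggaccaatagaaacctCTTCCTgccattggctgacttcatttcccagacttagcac
Mllt3: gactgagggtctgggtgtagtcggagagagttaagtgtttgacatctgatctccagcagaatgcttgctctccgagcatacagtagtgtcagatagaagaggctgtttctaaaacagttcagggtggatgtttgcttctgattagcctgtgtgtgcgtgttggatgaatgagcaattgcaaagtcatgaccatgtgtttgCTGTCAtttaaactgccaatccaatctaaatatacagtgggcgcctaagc
Within the printed bases, Meis1 holds RUNX letters, Runx1 ETS letters, Mllt3 MEIS letters, and Erg GATA, ETS and 2 copies of MEIS letters. The RUNX and MYC letters of the Runx1 window lie in bases that are not printed. A match describes the letters in these windows and is not evidence of a bound site.

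Values were FPKM, fragments per kilobase of transcript scaled to the mapped total, so levels can be set side by side between genes and the absolute depth is unknown. Between 11649 and 14258 genes per library reached 1 FPKM, and the 10 highest genes made up 33.0% to 86.9% of the summed FPKM. Each log2 fold change below is a difference of mean log2(FPKM + 1) ± its standard error, a scale that shrinks changes of low genes. They were tested with limma, and called at a Benjamini-Hochberg adjusted p under 0.05 over all genes with at least 1 FPKM in at least 3 libraries. The labels do not tie replicates to separate animals, and the p-values therefore rest on the spread of these libraries, which may be technical. In these bulk samples fewer cells of a type and less RNA per cell cannot be told apart. No libraries were identical, and 1 of the 65, Ncad_marrow replicate 2, was most like a library of another group (Nestin_GFP).

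The HSPC set asked how the members differ between the gates. In Reserve, Meis1 was the most abundant member at 220.2 ± 13.96 FPKM, followed by Mllt3 at 211 ± 11.98 FPKM, Hlf at 112 ± 1.95 FPKM and Mecom at 72.9 ± 4.72 FPKM (SD, n = 4). Prdm16 was lowest at 4.64 ± 1.24 FPKM (SD, n = 4). From Reserve through Primed and ST to MPP, 5 members, Mecom, Hlf, Mllt3, Gata2 and Mycn, had a lower mean at each gate than at the one before, and Erg and Runx1 did not differ between MPP and Reserve beyond their spread. The plot of levels by HSPC group shows each library.

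**Figure D1:**
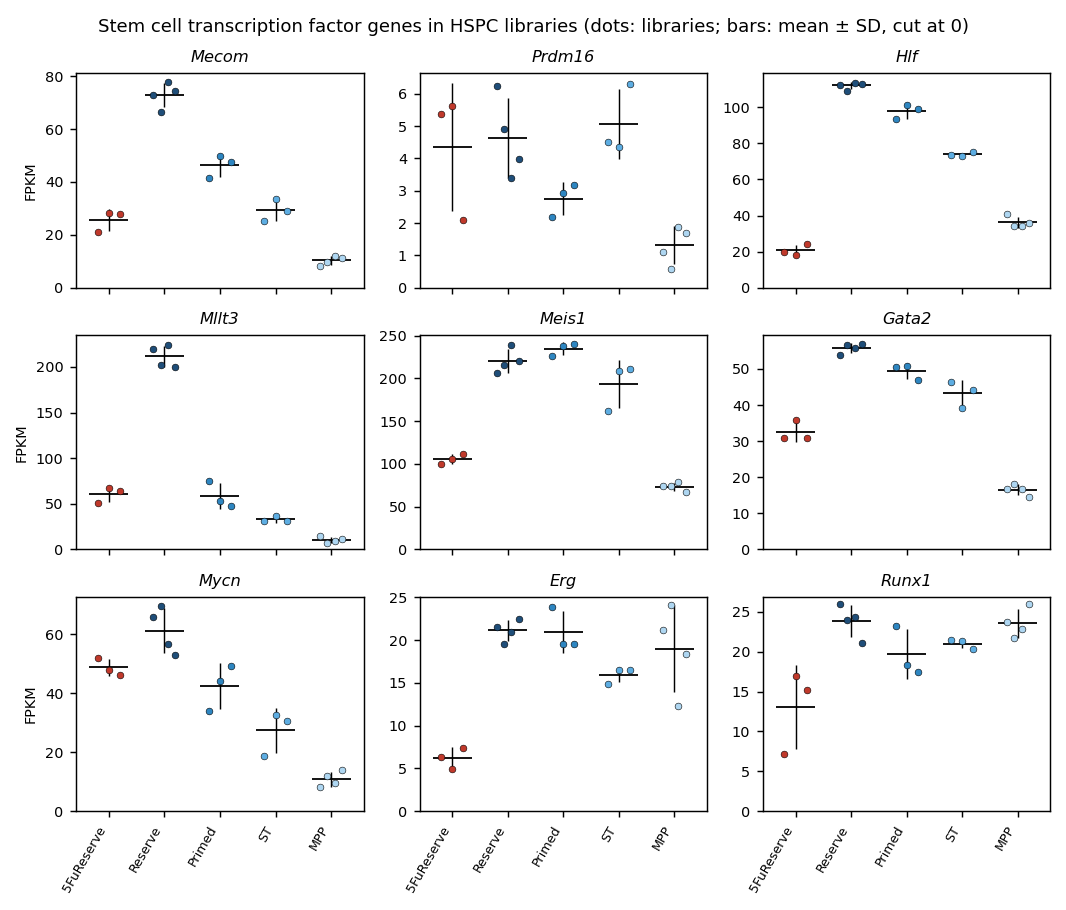
FPKM of the 9 genes (one panel each, linear axes from 0) in 17 HSPC libraries; points are libraries and bars are mean ± SD, cut at 0. Mllt3 sits near 211 FPKM in Reserve and at 58.4 FPKM or less on average in Primed, ST and MPP, while Runx1 has overlapping points in MPP and Reserve.

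Mecom (ENSMUSG00000027684, mm10 chromosome 3, 29951296 to 30548008, minus strand), which encodes the EVI1 zinc finger protein needed for long-term stem cells, had 73.0, 66.4, 77.7 and 74.5 FPKM in Reserve, 41.4, 49.99 and 47.5 in Primed, 25.4, 33.6 and 28.9 in ST, and 8.09, 9.82, 12.1 and 11.3 in MPP. The 4 groups did not overlap. The log2 fold change was -0.65 ± 0.14 in Primed against Reserve (adjusted p = 0.023), -1.29 ± 0.14 in ST against Reserve (adjusted p = 3.0e-05) and -2.72 ± 0.13 in MPP against Reserve (adjusted p = 2.0e-09). The first of these calls was lost without any single Primed library or without Reserve replicate 3 or 4, at adjusted p = 0.062 to 0.080.

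Prdm16 (ENSMUSG00000039410, chromosome 4, 154316125 to 154636873, minus strand), the relative of Mecom, was near the low end of the scale. It had 6.25, 4.91, 3.399 and 3.99 FPKM in Reserve, 2.17, 2.94 and 3.17 in Primed, 4.49, 4.36 and 6.32 in ST, and 1.11, 0.58, 1.89 and 1.71 in MPP. MPP lay below all other untreated groups, and Reserve and ST overlapped. The fall was called in MPP against Reserve (-1.29 ± 0.26, adjusted p = 0.0013) and in MPP against ST (-1.41 ± 0.28, adjusted p = 0.0037). In Primed against Reserve it was -0.57 ± 0.28 (adjusted p = 0.33).

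Hlf (ENSMUSG00000003949, chromosome 11, 90336536 to 90390895, minus strand), whose expression is known to mark stem cells at the top of the hierarchy, varied least between replicates of Reserve. It had 112, 109, 114 and 113 FPKM in Reserve, 93.3, 101 and 99.2 in Primed, 73.5, 73.0 and 75.0 in ST, and 40.6, 34.0, 34.1 and 36.0 in MPP, with no overlap between neighbouring groups. The change in Primed against Reserve was not called (-0.19 ± 0.09, adjusted p = 0.31), with a 95% interval of -0.40 to 0.01. The changes in ST (-0.60 ± 0.09, adjusted p = 6.3e-04) and MPP (-1.61 ± 0.09, adjusted p = 5.7e-09) against Reserve were called.

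Mllt3 (ENSMUSG00000028496, chromosome 4, 87769925 to 88033364, minus strand) had the largest log2 fold change of the 9 members in Primed, ST and MPP against Reserve. It had 219, 202, 224 and 200.1 FPKM in Reserve, 74.6, 53.0 and 47.7 in Primed, 30.8, 37.1 and 31.1 in ST, and 14.8, 6.72, 9.11 and 11.5 in MPP. No neighbouring groups overlapped. In MPP against ST the log2 fold change was -1.60 ± 0.21 (adjusted p = 1.2e-04), and in ST against Primed it was -0.78 ± 0.22 (adjusted p = 0.075).

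Meis1 (ENSMUSG00000020160, chromosome 11, 18879817 to 19018985, minus strand) had overlapping levels in Reserve, Primed and ST. It had 206, 216, 239 and 220.3 FPKM in Reserve, 226, 238 and 240.1 in Primed, 161, 208 and 211 in ST, and 74.2, 73.9, 78.8 and 67.5 in MPP. Primed and ST each overlapped Reserve, and MPP lay far below. The log2 fold change was 0.09 ± 0.10 in Primed against Reserve (interval -0.11 to 0.30), -0.19 ± 0.10 in ST against Reserve (adjusted p = 0.22) and -1.57 ± 0.09 in MPP against Reserve (adjusted p = 7.4e-09).

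Gata2 (ENSMUSG00000015053, chromosome 6, 88193891 to 88207032, plus strand), needed for the production and survival of stem cells, had 53.8, 56.7, 55.8 and 57.0 FPKM in Reserve, 50.7, 50.9 and 47.0 in Primed, 46.5, 39.1 and 44.2 in ST, and 16.8, 18.1, 16.7 and 14.6 in MPP. Its groups lay close together up to ST and dropped in MPP. The changes in ST against Reserve (-0.36 ± 0.09, adjusted p = 0.017) and MPP against Reserve (-1.70 ± 0.09, adjusted p = 2.8e-09) were called, and the call in ST was lost without ST replicate 2 (adjusted p = 0.091).

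Mycn (ENSMUSG00000037169, chromosome 12, 12936093 to 12941914, minus strand), a growth regulator of the MYC family, had 65.7, 69.6, 56.8 and 52.9 FPKM in Reserve, 34.0, 44.0 and 49.3 in Primed, 18.8, 32.7 and 30.6 in ST, and 8.07, 11.8, 9.63 and 13.9 in MPP. The log2 fold change was -0.53 ± 0.20 in Primed (adjusted p = 0.19), -1.16 ± 0.20 in ST (adjusted p = 0.0012) and -2.41 ± 0.19 in MPP (adjusted p = 1.7e-07), each against Reserve. Its paralog Myc went another way, at 110.2 ± 16.9 FPKM in Primed (SD, n = 3) against 53.6 ± 8.98 FPKM in Reserve (SD, n = 4), a called rise of 1.03 ± 0.21 (adjusted p = 0.015).

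Erg (ENSMUSG00000040732, chromosome 16, 95359169 to 95586593, minus strand) and Runx1 (ENSMUSG00000022952, chromosome 16, 92601466 to 92826149, minus strand) were the members with no call in the tested comparisons of untreated HSPC gates. MPP was not tested against Primed. Erg had 21.5, 19.6, 20.9 and 22.5 FPKM in Reserve, 23.8, 19.5 and 19.5 in Primed, 14.9, 16.5 and 16.5 in ST, and 21.2, 24.1, 12.3 and 18.4 in MPP. Runx1 had 25.9, 24.0, 24.3 and 21.1 FPKM in Reserve, 23.3, 18.3 and 17.5 in Primed, 21.4, 21.3 and 20.3 in ST, and 23.7, 21.7, 22.9 and 25.9 in MPP. The MPP and Reserve libraries of both genes overlapped. In MPP against Reserve the log2 fold change was -0.18 (interval -0.54 to 0.18) for Erg and -0.02 (interval -0.43 to 0.39) for Runx1. Under median-of-ratios scaling these values were 0.07 and 0.23, still not called. ST lay below Reserve for Erg in all libraries (-0.38 ± 0.18, adjusted p = 0.21), a change that was called when the spread was taken from those 2 groups alone (adjusted p = 0.039).

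Counted over the 9 members, all tested, 2 were called lower in Primed against Reserve, where 2.26% of all 16171 tested genes were. In ST against Reserve 5 members were called lower, where 6.21% of all genes were, and in MPP against Reserve 7 were, where 28.3% of all genes were. Between neighbouring gates, 2 members (Hlf and Mecom) were called lower in ST against Primed, with 1.01% of all genes, and 7 in MPP against ST, with 15.6%. Leaving out any single Primed or ST library left 0 or 1 of the calls in ST against Primed, and no filter left 0. No member was called higher in these comparisons of untreated gates. The median of all genes was -0.20 in MPP against Reserve and -0.18 in MPP against ST, and -0.01 and 0.01 after median-of-ratios scaling. With scaling, 3134 genes were called higher and 3160 lower in MPP against Reserve, against 2056 and 4570 without, and the 7 members stayed called at -1.14 for Prdm16 to -4.01 for Mllt3. Igkc, an immunoglobulin gene, reached up to 2341 FPKM in Reserve, where replicates 3 and 4 were the high libraries. Without them 1, 4 and 7 members were called lower in Primed, ST and MPP against Reserve.

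Markers of other cell types also moved between MPP and Reserve. Of 8 megakaryocyte markers tested 6 were called lower, with sums of 71.6 to 95.02 FPKM in MPP and 358 to 402 FPKM in Reserve, and of 11 endothelial markers 8 were lower and 2 higher, with sums of 44.1 to 61.0 FPKM in MPP and 150.4 to 168 FPKM in Reserve. Of 13 T and NK cell markers 3 were higher and 1 lower, with sums of 501 to 570 FPKM in MPP and 57.4 to 97.3 FPKM in Reserve. Their part in the lower levels of the members was not tested.

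**Figure D2:**
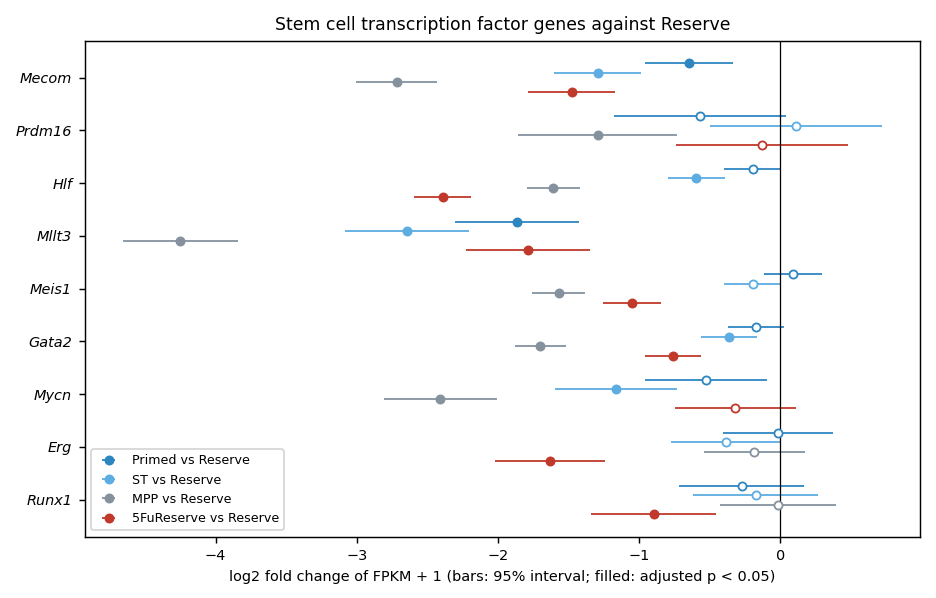
Log2 fold change of FPKM + 1 of the 9 genes in Primed, ST, MPP and 5FuReserve, each against Reserve; bars are 95% intervals and filled points have an adjusted p under 0.05. Mllt3 reaches -4.25 in MPP, Hlf is lower in 5FuReserve (-2.39) than in MPP (-1.61), and Mycn and Prdm16 have open points in 5FuReserve.

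After 5FU, 7 members were called lower in 5FuReserve against Reserve, where 22.8% of all tested genes were, and their changes were unequal. Hlf fell most, to 19.6, 18.1 and 24.4 FPKM in 5FuReserve, against 109 to 114 FPKM in Reserve, and all 5FuReserve libraries lay below the lowest MPP library at 34.0 FPKM. Its log2 fold change was -2.39 ± 0.09 (interval -2.59 to -2.19, adjusted p = 4.0e-11). Gata2 fell least of the called members, to 30.9, 35.8 and 31.0 FPKM in 5FuReserve, against 53.8 to 57.0 FPKM in Reserve (-0.76 ± 0.09, interval -0.96 to -0.56).

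Erg had 6.36, 4.91 and 7.39 FPKM in 5FuReserve, against 19.6 to 22.5 FPKM in Reserve, a change of -1.63 ± 0.18 (adjusted p = 4.2e-06). Runx1 had 7.13, 16.9 and 15.2 FPKM in 5FuReserve, against 21.1 to 25.9 FPKM in Reserve, with replicate 1 the lowest (-0.90 ± 0.21, adjusted p = 0.0025). Both genes, which had no call in the tested comparisons of untreated gates, lay below Reserve in every 5FuReserve library.

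Mllt3 had 51.1, 67.5 and 64.1 FPKM in 5FuReserve, against 200.1 to 224 FPKM in Reserve (-1.79 ± 0.21, adjusted p = 5.8e-06). Mecom had 21.0, 28.2 and 27.9 FPKM in 5FuReserve, against 66.4 to 77.7 FPKM in Reserve (-1.48 ± 0.14, adjusted p = 1.1e-06). Meis1 had 100.3, 106 and 111 FPKM in 5FuReserve, against 206 to 239 FPKM in Reserve (-1.05 ± 0.10, adjusted p = 5.0e-07). In all 3 genes the 5FuReserve and Reserve libraries were far apart.

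Mycn and Prdm16 were not called. Mycn had 52.1, 47.9 and 46.3 FPKM in 5FuReserve, against 52.9 to 69.6 FPKM in Reserve, which did not overlap, with a change of -0.32 ± 0.20 (interval -0.75 to 0.11, adjusted p = 0.21). Prdm16 had 5.38, 5.63 and 2.08 FPKM in 5FuReserve, against 3.399 to 6.25 FPKM in Reserve, which overlapped (interval -0.74 to 0.48).

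Against ST, 5FuReserve had 2 members called higher, where 21.3% of all genes were, and 5 called lower, where 16.6% were. Mllt3 (0.86 ± 0.22, adjusted p = 0.0067) and Mycn (0.85 ± 0.22, adjusted p = 0.0064) were higher. Hlf (-1.80 ± 0.10), Erg (-1.25 ± 0.19), Meis1 (-0.85 ± 0.10), Runx1 (-0.72 ± 0.22) and Gata2 (-0.40 ± 0.10) were lower, and Mecom was not called (-0.18 ± 0.15, adjusted p = 0.38). The Runx1 call was lost without 5FuReserve replicate 1 (-0.37, adjusted p = 0.051), without a filter (adjusted p = 0.052) and with the spread of those 2 groups alone (adjusted p = 0.13). These comparisons share the 5FuReserve libraries with those against Reserve.

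Transcripts of other cell types moved with the 5FU libraries. Of 12 B cell markers, 12 averaged at least 1 FPKM in 5FuReserve and 5 did in Reserve, with summed levels of 83969 to 87873 FPKM in 5FuReserve and 403 to 3735 FPKM in Reserve. Without immunoglobulin genes and Cd74 the sums were 1561 to 1614 FPKM in 5FuReserve and 54.8 to 80.6 FPKM in Reserve, and Blk, Fcmr and Vpreb3 were at 0 in all Reserve libraries. Of 13 T and NK cell markers, 12 averaged at least 1 FPKM in 5FuReserve and 3 did in Reserve, with sums of 703 to 844 FPKM in 5FuReserve and 57.4 to 97.3 FPKM in Reserve, and Cd2, Cd3e, Cd3g and Gzma were at 0 in Reserve. Macrophage markers summed to 123 to 146 FPKM in 5FuReserve and 22.5 to 31.9 FPKM in Reserve. Of 10 neutrophil markers 2 were called higher and 5 lower (median -1.66), while their sum was 7602 to 9713 FPKM in 5FuReserve and 1943 to 5224 FPKM in Reserve. Megakaryocyte and endothelial markers had 2 and 5 called higher and 3 and 4 lower. The part of these transcripts in the lower levels of the members was not tested.

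Factors that act with the members were read from a list of 28 partners and cofactors, of which 27 were tested. In 5FuReserve against Reserve 3 were called higher and 21 lower, with a median log2 fold change of -0.73 against -0.03 over all genes. Over all 16171 tested genes, 4120 were called higher and 3693 lower. Kmt2a, a histone methyltransferase whose leukemic fusions include MLLT3, changed by -1.53 ± 0.11, Hoxa5 by -1.84 ± 0.16 and the LIM adaptor Lmo2 by -0.75 ± 0.07.

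In MPP against Reserve 2 of these 27 partners were higher and 14 lower, with a median of -0.39 against -0.20 over all genes. Lmo2 (-0.81 ± 0.06), Hoxa10 (-1.48 ± 0.14) and Hoxa9 (-0.96 ± 0.10) were among those lower. In Primed against Reserve 1 was higher and 1 lower, and these were Cbfb (0.58 ± 0.14), whose product pairs with RUNX1, and Hoxa5 (-0.78 ± 0.16). In ST against Reserve 1 was higher and 7 lower.

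Paralogs of the members did not share one direction. Of 16 tested, 3 were higher and 3 lower in Primed, 1 higher and 5 lower in ST, 2 higher and 7 lower in MPP, and 4 higher and 6 lower in 5FuReserve, each against Reserve. Runx3 was at 13.9 ± 0.43 FPKM in Primed (SD, n = 3), 25.7 ± 5.64 FPKM in ST (SD, n = 3) and 28.1 ± 2.83 FPKM in MPP (SD, n = 4), against 4.49 ± 1.24 FPKM in Reserve (SD, n = 4). Its rises of 1.47 ± 0.17, 2.29 ± 0.17 and 2.43 ± 0.16 were all called, while Runx1 was not. Gata3 (-2.80 ± 0.20) and Meis3 (-2.86 ± 0.26) were lower in MPP against Reserve, like Gata2 and Meis1. Ets1, an ETS factor of lymphocytes and endothelium, was at 26.7 ± 5.49 FPKM in 5FuReserve (SD, n = 3) and 5.70 ± 1.62 FPKM in Reserve (SD, n = 4), a rise of 2.06 ± 0.22, beside the fall of Erg and the lymphocyte markers above.

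Of 24 other stem cell transcription factors, 4 were lower in Primed, 12 in ST and 17 in MPP against Reserve, and 0 were higher. Ndn (-4.10 ± 0.18), Tcf15 (-4.08 ± 0.19), Cited2 (-1.55 ± 0.10) and the immediate early gene Egr1 (-2.06 ± 0.13) were among those lower in MPP. In 5FuReserve 4 were higher and 13 lower, with Id2, an inhibitor of helix-loop-helix factors, higher by 3.75 ± 0.27 and Stat5a lower (-1.37 ± 0.09).

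Of 17 lineage transcription factors, 10 were higher and 2 lower in 5FuReserve against Reserve, with a median of 1.31. Among all 16171 tested genes 4120 were higher and 3693 lower there. Ebf1 (3.07 ± 0.12) and Pou2af1 (3.38 ± 0.15), both of B cells, and Tcf7 (3.12 ± 0.18), of T cells, were among the 10. In MPP against Reserve 4 were higher and 4 lower, with Satb1 (2.64 ± 0.21) and Cebpa (1.29 ± 0.16) higher and Nfe2 (-1.48 ± 0.13) and Cebpb (-1.18 ± 0.14) lower. Of 16 stem cell surface and signalling genes, 15 were lower in MPP and 11 in 5FuReserve. Kit, the receptor used in the gate, was at 30.6 ± 1.82 FPKM in 5FuReserve (SD, n = 3) and 109 ± 2.56 FPKM in Reserve (SD, n = 4).

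**Figure D3:**
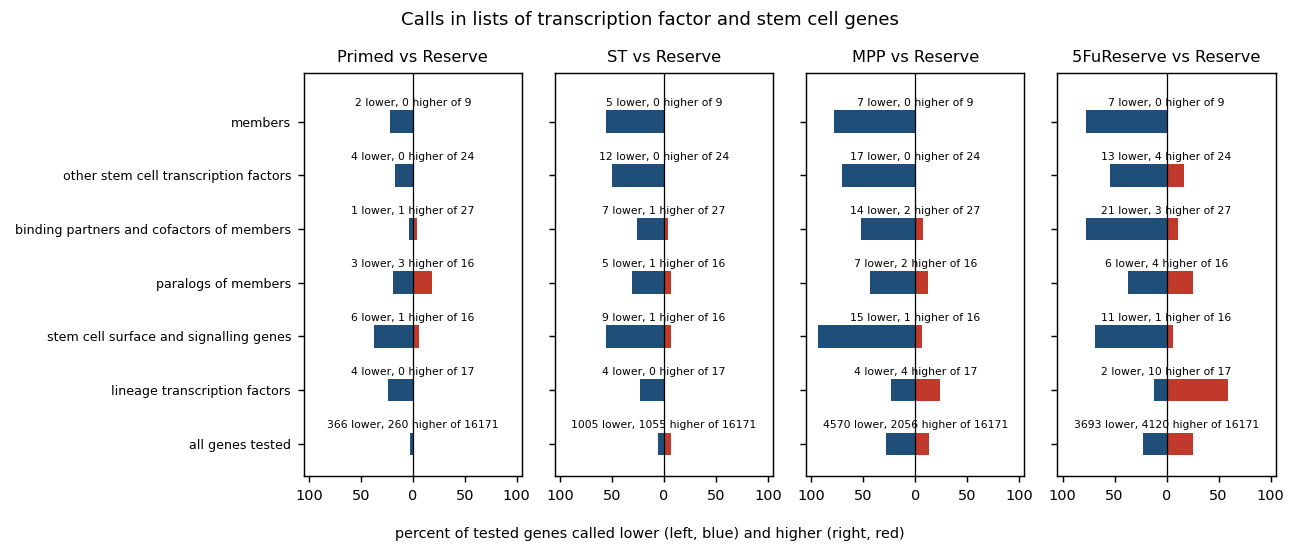
Percent of tested genes called lower (left of 0) and higher (right of 0) in 6 gene lists and over all 16171 genes, in the 4 comparisons against Reserve. Bars of the 9 members lie on the left throughout, and lineage factors lie mostly on the right in 5FuReserve, with 10 of 17 higher.

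The genes whose log2(FPKM + 1) ran closest to each member over the 17 HSPC libraries, among 8652 genes with a mean of at least 5 FPKM, are given as a description. The libraries of a group share a gate, so these values partly follow the 5 groups. Itsn1 (Pearson r = 0.98), Hoxa10 (0.98) and Mmrn1 (0.97) ran closest to Mecom, and Sult1a1 (0.98), Ifitm1 (0.98) and Kazald1 (0.97) to Mllt3. Kmt2c (0.98), March6 (0.98) and Nedd4 (0.98) ran closest to Hlf. Angpt1 (0.98), the ligand of TIE2, Crebzf (0.97) and Slc18a2 (0.97) ran closest to Meis1. Cd63 (0.99) and Ptrf (0.98) ran close to Gata2, and Maged2 (0.97), Ndn (0.97) and Smpdl3a (0.97) to Mycn.

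Prdm16, Erg and Runx1 had weaker matches. Cep19 reached 0.91 with Prdm16, Coprs 0.89 and Ift20 0.86, Pura reached 0.95 with Erg and Luc7l2 0.95, and Pdzd8 reached 0.87 with Runx1. The 2 genes closer to Runx1, Mir1931 (0.92) and mt-Tk (0.88), are very short, and FPKM is uncertain for them.

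In the niche set the members were read in cells sorted by niche reporters or surface markers rather than by the LSK gate. The moderated F test of limma over the 10 groups called all 9 members, where 89.0% of all 18972 tested genes were called, so the calls say little about the members. The orders of their levels differed, as the plot of niche groups shows. Runx1 reached the highest level of any member, 72.4 FPKM in a Nestin_GFP library, but had a lower mean than other members in Col2.3_GFP, Pecam_GFP and MK. Hlf was the weakest call (F = 2.67, adjusted p = 0.021, lost without Mac replicate 1 or 4 at 0.058 and 0.067).

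**Figure D4:**
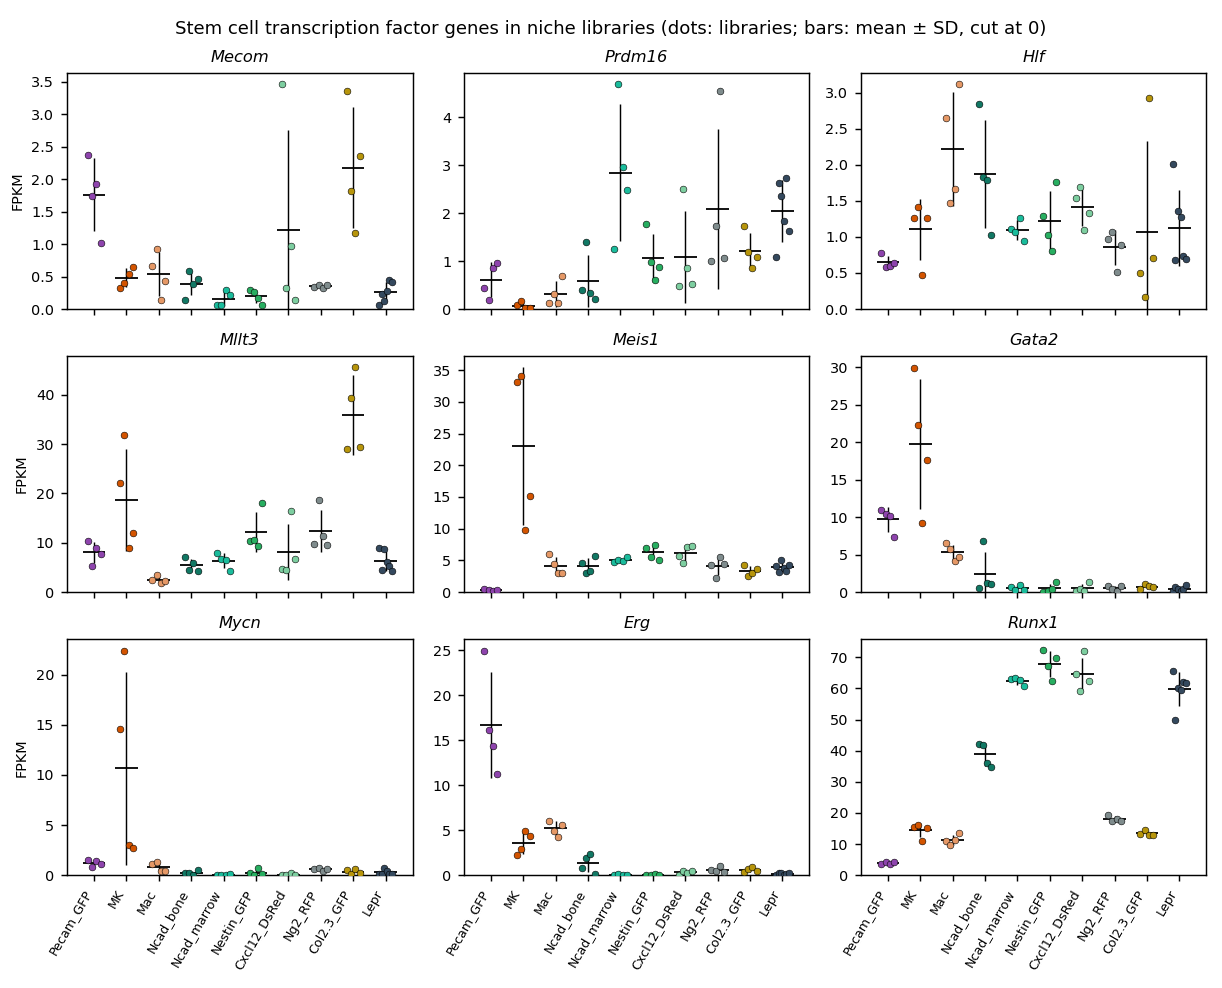
FPKM of the 9 genes (one panel each, linear axes from 0) in 42 niche libraries of 10 groups; points are libraries and bars are mean ± SD, cut at 0. Erg stands out in Pecam_GFP, Meis1, Gata2 and Mycn in MK, Mllt3 in Col2.3_GFP and MK, and Runx1 in 4 stromal groups near 60 to 68 FPKM.

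The labels were first set against markers. Pecam_GFP had all 13 endothelial markers at 1 FPKM or more, and its Pecam1, which encodes CD31, averaged 87.1 FPKM although CD31 is in the list of excluded antigens. The sum of 10 neutrophil markers was 392084 to 569793 FPKM in Mac, where the 10 macrophage markers summed to 209 to 293 FPKM and Mertk averaged 0.08 FPKM. Mac is therefore named here by its gate. In MK the 9 megakaryocyte markers summed to 37821, 38068, 5984 and 10754 FPKM in replicates 1 to 4, and the neutrophil markers to 109816, 85658, 370156 and 313728 FPKM. Lepr replicate 3 had a megakaryocyte marker sum of 6734 FPKM, against a Lepr median of 47.9 FPKM.

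Pecam_GFP cells were compared with Lepr cells, an endothelial gate with a stromal one. There 4 members were called higher, where 19.7% of all genes were, and 3 lower, where 22.0% were. Erg, which keeps endothelial identity, had 24.9, 16.1, 14.4 and 11.3 FPKM in Pecam_GFP, against a lowest of 0.03, a median of 0.14 and a highest of 0.25 FPKM in Lepr (3.90 ± 0.21, adjusted p = 5.2e-18). Gata2 had 10.9, 10.4, 10.2 and 7.29 FPKM in Pecam_GFP, against 0.14 to 0.91 FPKM in Lepr (2.89 ± 0.31, adjusted p = 5.7e-10). Both genes were clear of the stromal range in every Pecam_GFP library.

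Mecom was low but higher in Pecam_GFP, with 2.37, 1.75, 1.92 and 1.02 FPKM in Pecam_GFP, against 0.06 to 0.44 FPKM in Lepr (1.12 ± 0.22, adjusted p = 8.8e-05). Mycn (0.78 ± 0.30, adjusted p = 0.035) lost its call when any of 7 of its 10 libraries was left out (adjusted p = 0.056 to 0.091), and with the replicate number as a block (adjusted p = 0.11). Runx1 was at 3.65, 4.10, 3.54 and 4.32 FPKM in Pecam_GFP, against 49.8 to 65.7 FPKM in Lepr, and changed by -3.63 ± 0.10 (adjusted p = 2.7e-26). Its paralog Runx2, the osteoblast regulator, was lower too (-4.40 ± 0.17), as were the members Meis1 (-1.91 ± 0.23, adjusted p = 1.2e-08) and Prdm16 (-0.92 ± 0.26, adjusted p = 0.0048). The ETS genes Fli1 (2.51 ± 0.18) and Ets2 (3.55 ± 0.21) were higher with Erg.

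MK cells were compared with Mac cells, which come from the same cross. Here 5 members were called higher, where 23.2% of all genes were. Meis1 had 33.1, 34.1, 9.74 and 15.2 FPKM in MK, against 5.99, 4.42, 3.05 and 3.07 FPKM in Mac (2.09 ± 0.25, adjusted p = 5.7e-08). Mycn had 14.6, 22.4, 2.97 and 2.66 FPKM in MK, against 1.12, 1.33, 0.41 and 0.40 FPKM in Mac (2.27 ± 0.33, adjusted p = 1.5e-06). In both genes replicates 1 and 2 were above replicates 3 and 4 in MK and also in Mac. The sums of megakaryocyte, erythroid (6428, 4034, 1369.6 and 2296 FPKM), macrophage (1139, 1175, 517 and 432 FPKM), endothelial (109, 132, 21.8 and 29.9 FPKM) and stromal markers (347, 362, 76.2 and 53.7 FPKM) split the MK replicates in the same way, and those of neutrophil, B cell, T and NK cell and leukocyte markers in the opposite way. In MK against Mac 9 of 9 megakaryocyte, 7 of 8 erythroid, 11 of 13 T and NK cell, 8 of 12 B cell, 6 of 10 macrophage, 12 of 13 endothelial and 9 of 13 stromal markers were called higher. Of 16 stem cell surface and signalling genes tested, 12 were called higher and 0 lower, and the MK gate as labelled names no step against stem cells. The part of these transcripts in the differences of the members was not tested. The Mycn call was lost with the spread of those 2 groups alone (adjusted p = 0.055).

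Gata2, which acts in megakaryocyte precursors, had 30.0, 22.3, 9.24 and 17.6 FPKM in MK, against 6.49, 5.76, 4.18 and 4.74 FPKM in Mac (1.63 ± 0.34, adjusted p = 2.4e-04). Mllt3 had 22.1, 31.8, 8.98 and 11.9 FPKM in MK, against 1.92 to 3.54 FPKM in Mac (2.34 ± 0.32, adjusted p = 5.4e-07). Neither gene overlapped between the groups. For Gata2 the replicates of MK and of Mac split by number in the same way as for Meis1 and Mycn. Tal1 (2.49 ± 0.39) and Gata1 (2.82 ± 0.54), partner and paralog of GATA2, were higher as well. With MK replicates 3 and 4 left out the changes were 2.79 for Meis1, 3.44 for Mycn, 2.11 for Gata2 and 2.98 for Mllt3, and Erg was called lower (-0.81, adjusted p = 0.016).

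The Runx1 call in MK against Mac was small (0.32 ± 0.10, adjusted p = 0.015) and absent under median-of-ratios scaling (0.04, adjusted p = 0.90). That scaling moved the median of all genes in this comparison to 0.00, against 0.12 without, and the calls to 3213 higher and 2876 lower, against 4397 and 1660 without. Hlf (-0.82, adjusted p = 0.0074) and Erg (-0.73, adjusted p = 0.016) were called lower in MK with scaling. Erg had 6.04, 4.95, 4.21 and 5.57 FPKM in Mac, where the 13 endothelial markers summed to 7.35 to 10.8 FPKM and 2 of them averaged at least 1 FPKM.

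Runx1 divided the stromal groups. Nestin_GFP (67.9 ± 4.29 FPKM), Cxcl12_DsRed (64.6 ± 5.37 FPKM) and Ncad_marrow (62.4 ± 1.20 FPKM) had neighbouring ranges that overlapped, and so did Lepr (59.8 ± 5.34 FPKM, SD, n = 6). Ncad_bone (38.8 ± 3.80 FPKM), Ng2_RFP (18.04 ± 0.93 FPKM) and Col2.3_GFP (13.4 ± 0.68 FPKM) lay lower (SD, n = 4). In Col2.3_GFP cells, marked by an osteoblast collagen promoter, it had 13.4, 14.4, 12.95 and 13.05 FPKM, and changed by -2.07 ± 0.10 against Lepr (adjusted p = 1.4e-19).

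That was the 1 member called lower in Col2.3_GFP against Lepr, where 16.8% of all genes were, and 2 were called higher, where 28.2% were. Mllt3 had 29.0, 39.3, 45.6 and 29.5 FPKM in Col2.3_GFP, against a lowest of 4.24, a median of 5.64 and a highest of 8.97 FPKM in Lepr (2.37 ± 0.29, adjusted p = 2.5e-08). Mecom had 3.37, 1.82, 1.17 and 2.36 FPKM in Col2.3_GFP, against 0.06 to 0.44 FPKM in Lepr (1.30 ± 0.22, adjusted p = 9.6e-06). The groups did not overlap for either gene. Erg did not overlap either, at 0.36 to 0.86 FPKM in Col2.3_GFP and 0.03 to 0.25 FPKM in Lepr. It was not called (0.45 ± 0.21, adjusted p = 0.078). With a pseudocount of 0.1 (adjusted p = 0.0083) or the spread of those 2 groups alone (adjusted p = 0.0054) it was called higher. Of 13 endothelial markers 10 were called higher in Col2.3_GFP, with sums of 77.1 to 139 FPKM in Col2.3_GFP and 8.22 to 31.7 FPKM in Lepr. Of 8 erythroid markers 3 were called higher, with sums of 3182 to 4752 FPKM in Col2.3_GFP and 1620 to 2384 FPKM in Lepr, and of 10 neutrophil markers 10 were called lower, with sums of 1427 to 10455 FPKM in Col2.3_GFP and 11834 to 19978 FPKM in Lepr. The part of these transcripts in the differences of the members was not tested.

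N-cadherin reporter cells of bone were compared with those of marrow. In homeostasis 1 member was called higher in Ncad_bone, where 14.7% of all genes were, and 2 lower, where 9.95% were. Runx1 had 42.2, 41.98, 36.2 and 34.9 FPKM in Ncad_bone, against 62.9, 63.3, 62.8 and 60.7 FPKM in Ncad_marrow (-0.68 ± 0.10, adjusted p = 6.0e-06). Prdm16 had 0.41, 1.39, 0.34 and 0.20 FPKM in Ncad_bone, against 1.25, 4.68, 2.96 and 2.48 FPKM in Ncad_marrow, with replicate 2 the highest of each group (-1.26 ± 0.29, adjusted p = 0.0013). Erg had 0.84, 1.88, 2.36 and 0.18 FPKM in Ncad_bone, against 0.02 to 0.09 FPKM in Ncad_marrow (1.02 ± 0.23, adjusted p = 8.1e-04), lost with the spread of those 2 groups alone (adjusted p = 0.065).

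Of 13 endothelial markers 1 was called higher, with sums of 9.76 to 31.1 FPKM in Ncad_bone and 5.01 to 9.96 FPKM in Ncad_marrow, and Cldn5 and Robo4 were at 0 in all Ncad_bone libraries. In Ncad_bone replicates 1 to 4 the endothelial sums were 31.1, 19.4, 11.4 and 9.76 FPKM. Of 10 neutrophil markers 6 were called higher and 0 lower, with sums of 1429 to 10599 FPKM in Ncad_bone and 366 to 7919 FPKM in Ncad_marrow. Of 8 erythroid markers 4 were called higher and 0 lower, with sums of 554 to 4968 FPKM in Ncad_bone and 279 to 1174 FPKM in Ncad_marrow. The part of these transcripts in the Erg difference was not tested. Gata2 was at 0.59, 6.76, 1.24 and 1.05 FPKM in Ncad_bone, against 0.24 to 0.92 FPKM in Ncad_marrow (0.89 ± 0.34, adjusted p = 0.050), with replicate 2 far above the rest. Neutrophil markers summed to 1429 FPKM in that replicate, the lowest of the 4 libraries. Over the 4 Ncad_bone libraries B cell markers summed to 34.8 to 5573 FPKM and T and NK cell markers to 4.10 to 52.7 FPKM. The part of transcripts of other cell types in the Gata2 value was not tested.

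After 5FU, 4 of the 9 members, Runx1, Prdm16, Mllt3 and Meis1, passed the filter in the N-cadherin reporter cells, and 1 was called lower in bone, where 10.4% of 13738 tested genes were. Runx1 had 17.5, 18.1 and 24.1 FPKM in 5Fu_Ncad_bone, against 45.8, 41.7 and 40.5 FPKM in 5Fu_Ncad_marrow (-1.07 ± 0.15, adjusted p = 0.0041). Bone lay below marrow in every library, as in homeostasis. Prdm16 had 1.07, 0.32 and 0.57 FPKM in 5Fu_Ncad_bone, against 2.84, 1.11 and 1.13 FPKM in 5Fu_Ncad_marrow, which did not overlap and was not called (-0.67 ± 0.30, adjusted p = 0.16). The 5 members below the filter, Mecom, Hlf, Gata2, Mycn and Erg, reached at most 1.79 FPKM in any of these 6 libraries.

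**Figure D5:**
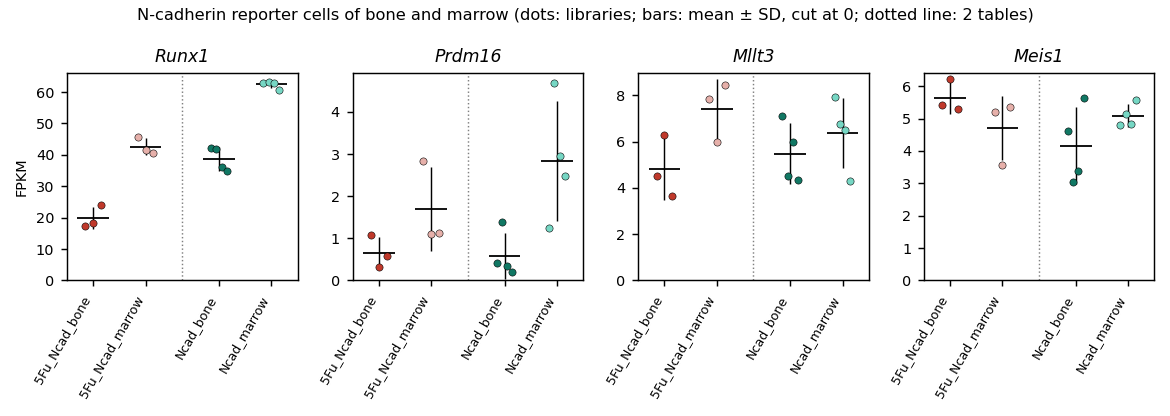
FPKM of Runx1, Prdm16, Mllt3 and Meis1 in N-cadherin reporter cells after 5FU (left of the dotted line, n = 3 each) and in homeostasis (right, n = 4 each); points are libraries and bars mean ± SD, cut at 0. The 2 sides come from separate tables and their levels are not compared. Runx1 is lower in bone than in marrow on both sides.

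The difference between bone and marrow was tested against treatment in 1 joint fit of 14 libraries, in which a constant offset of a gene between the tables cancels. Of the 6 members tested, 0 were called, where 18.9% of 15421 genes were, and 1 had an unadjusted p under 0.05 in limma. That was Runx1, at -0.40 ± 0.17 (adjusted p = 0.12), which passed the threshold without 5Fu_Ncad_bone replicate 3 (-0.54, adjusted p = 0.033). Runx2 gave a called interaction of 2.06 ± 0.27 (adjusted p = 2.3e-04). It was at 37.1 ± 4.93 FPKM in 5Fu_Ncad_bone and 21.2 ± 1.93 FPKM in 5Fu_Ncad_marrow (SD, n = 3 each), and at 23.3 ± 7.12 FPKM in Ncad_bone and 56.6 ± 5.05 FPKM in Ncad_marrow (SD, n = 4 each). Macrophage markers, a list that holds Vcam1, summed to 192 to 202 FPKM in 5Fu_Ncad_bone and 529 to 651 FPKM in 5Fu_Ncad_marrow. In the untreated niche set the same list summed to 596 to 754 FPKM in Lepr and 209 to 293 FPKM in Mac. The sum is therefore not a measure of macrophages alone. Of 5 macrophage markers tested after 5FU, 1 was called lower in bone, Vcam1 (-1.64 ± 0.09), and 0 higher. Stromal markers summed to 7997 to 9370 FPKM in 5Fu_Ncad_bone and 12227 to 15776 FPKM in 5Fu_Ncad_marrow. Of these 13 stromal markers 6 were called higher in bone and 7 lower. The part of these transcripts in the Runx1 difference was not tested.

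Neighbouring genes bear on some of these values. Exons of Meis1 share 1029 bases with Gm37818, a gene of the same strand that averaged 6.32 FPKM in Reserve. Strand cannot separate reads of these shared bases. Exons of Meis1 also share 896 bases with the antisense gene Gm16140, which averaged 3.81 FPKM in Reserve. Those of Runx1 share 106 bases with the antisense gene Gm26626 at 1.40 FPKM. Exons of Mecom share 81 bases with Mecomos at 1.29 FPKM, and those of Prdm16 share 109 with B230104I21Rik at 0.04 FPKM. The sources used here do not say whether reads were counted by strand, so reads of the partners on the opposite strand cannot be told apart either.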

How the data were processed

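RNA of 65 sorted libraries was made with the SMARTer ultra low input kit, per the labels' protocols. bcl2fastq 2.18, TopHat2 2.0.13 and Cufflinks 2.2.1 were used with mm10, per the submitters' processing notes; further settings are not given in the sources used here. The authors deposited FPKM per gene in 3 tables (44500, 44381 and 47530 genes, of which 15, 28 and 4 with missing values were left out). Relative depth, estimated from low values, ranged 5.02-fold, 7.10-fold and 2.76-fold within them. The log2 ratios of 62.5%, 99.7% and 100% of library pairs lay within 0.1 of these estimates, so the first range is the least certain. FPKM are not counts, so log2(FPKM + 1) was tested with limma 3.58.1 (R 4.3.3, trended variance) in 1 fit per table, two-sided, over genes with at least 1 FPKM in at least 3 libraries, adjusted by Benjamini-Hochberg. The test was tried on simulated data. Levels were not tested between tables. Alternatives were a pseudocount of 0.1, no filter, a mean of at least 5 FPKM, a fit of only the 2 compared groups, a replicate block, median-of-ratios scaling, and each library left out. Leaving out Reserve replicates 3 and 4, or MK replicates 3 and 4, was chosen after seeing the data. The members and gene lists were chosen with earlier results of these data known. Genes named from a list were up to 4 called genes per list and comparison with the smallest p whose libraries did not overlap between the groups, and those most alike a member were the 3 with the highest Pearson r. Positions are from GENCODE M21 on mm10. Some genes that these rules name are not reported here.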

Additional observations from a re-analysis of the deposited data

Results flagged for a closer look

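In 4 of 108 pairs of a member and a group of 4 to 10 libraries, 1 library stood apart from the rest by Dixon's test, where chance gives about 5 percent. Mllt3 was at 18.1 FPKM in Nestin_GFP replicate 4, against 9.42 to 10.6 FPKM in the other Nestin_GFP libraries. Gata2 was at 6.76 FPKM in Ncad_bone replicate 2, against 0.59 to 1.24 FPKM in the others. Runx1 was at 11.1 FPKM in MK replicate 3, against 15.3 to 16.01 FPKM in the others, and Mycn was at 0.19 FPKM in Cxcl12_DsRed replicate 3 and listed at 0 in the other 3.

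The difference of Runx2, a paralog of Runx1, between bone and marrow N-cadherin reporter cells was 2.06 larger on the log2(FPKM + 1) scale after 5FU than in homeostasis (limma, adjusted p = 2.3e-04). Bone was above marrow in all libraries after 5FU and below it in all libraries in homeostasis.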

How the results depend on the processing

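Of 1934 values of members under an alternative, 1856 kept their side of the threshold and, outside the F test, their direction. The 1856 include 415 values of the niche F test, which has no direction and called 89.0% of all tested genes. Beside them 44 lost a call, 15 gained one and 19 turned direction, with all of these 19 not called before or after. The 2 member calls in ST against Primed were the least stable: 1 with a pseudocount of 0.1, 0 without a filter, 1 with only the 2 compared groups (197 genes) and 1 with the replicate block. MPP against ST had 2069 genes called without a filter and 1317 with only the 2 groups. Without a filter 5Fu_Ncad_bone against 5Fu_Ncad_marrow had 1731. With a mean of at least 5 FPKM there were 342 genes in Primed against Reserve, 4745 (2 members) in Pecam_GFP against Lepr, 3999 (3) in MK against Mac, 2842 (1) in Ncad_bone against Ncad_marrow, 5335 in Col2.3_GFP against Lepr, 9022 (3) in the F test and 2032 in 5Fu_Ncad_bone against 5Fu_Ncad_marrow; this filter leaves fewer genes and, in the niche set, 3 members. With only the 2 groups MK against Mac had 3605 genes and 3 members. Without Reserve replicates 3 and 4, Primed, ST and MPP against Reserve had 258, 1320 and 4374 genes, and Primed had 1 member.

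Leaving out 1 library at a time gave 215 to 647 genes and 1 to 2 members in Primed against Reserve, 218 to 512 genes and 0 to 1 members in ST against Primed, 1971 to 3768 genes in MPP against ST, and 1983 to 2693 genes in 5Fu_Ncad_bone against 5Fu_Ncad_marrow. It gave 0 to 1 members in the interaction. The log2 fold changes that turned direction with a library left out ranged from -0.11 to 0.031 for Erg in Primed, -0.028 to 0.24 for Prdm16 in ST, -0.071 to 0.024 for Runx1 in MPP, -0.30 to 0.0007 for Erg in MPP and -0.32 to 0.23 for Prdm16 in 5FuReserve, each against Reserve. They ranged from -0.43 to 0.12 for Prdm16 in 5FuReserve against ST, -0.53 to 0.057 for Hlf in Col2.3_GFP against Lepr and -0.17 to 0.085 for Mecom in MK against Mac. Scaling turned Runx1 (0.23) and Erg (0.066) in MPP against Reserve, leaving out Reserve replicates 3 and 4 turned Erg in Primed (0.023) and Prdm16 in ST (-0.13), and the pseudocount of 0.1 turned Mecom in MK against Mac (0.026). Elsewhere the cause of a change was not tested.

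Over all tested genes, samples with the same replicate number did not deviate together, with r = -0.10 to 0.15 over 12 comparisons. No comparison had every r over 0.1, so the numbers are not taken as pairs. Meis1, Mycn and Gata2 did split by replicate number in the same way in MK and Mac, as given above. With the replicate block Primed against Reserve had 419 genes, and of the member calls Hlf in ST against Primed (adjusted p = 0.080) and Mycn in Pecam_GFP against Lepr (adjusted p = 0.11) were lost. FPKM hold no depth, so low members such as Prdm16 cannot be given a counting error. Protein sequences were not analysed here.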
